A study of Mus musculus with 16 samples.

Results

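The levels of 9 genes of the p53 pathway and of cellular senescence, Trp53, Mdm2, Cdkn1a, Ccng1, Gdf15, Cdkn2a, Cdkn2b, Cdkn2c and Lmnb1, were followed in the liver and kidney of aged mice. They were chosen by symbol from the 32989 gene rows of the liver and kidney tables, and each was found. Cdkn2a had 2 rows, of which the row with the higher mean represents the gene here. The animals were male C57BL/6J mice, 97 weeks old, that had spent 85 weeks under 1 of 2 light conditions. The 4 LD-conditioned mice, L63, L65, L86 and L104, were the controls and had light from 8:00 to 20:00 without shifts, and the 4 ADV-conditioned mice, A75, A91, A94 and A115, were under chronic jet lag (cjl), in which this cycle was advanced by 8 h every 4 days. Liver and kidney of the same 8 mice gave 1 poly(A) RNA-seq library each, 16 libraries in all. The values are FPKM, fragments divided by exon length and by the total of the library. Levels can be set side by side between genes, and comparisons between mice and between organs also depend on the scaling, as given below.

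p53, the product of Trp53, is a transcription factor that is stabilized by DNA damage and other stress and switches on genes that halt the cell cycle. Mdm2 is both a target of p53 and the ligase that marks p53 for degradation, which closes a feedback loop. A second brake is formed by the INK4 proteins p16, p15 and p18, encoded by Cdkn2a, Cdkn2b and Cdkn2c, which inhibit the cyclin D kinases and keep the retinoblastoma protein active. Cells that stay arrested for long are called senescent, and they are known for high p16 and p21, loss of lamin B1 from the nuclear lamina, and a secretory state that includes GDF15.

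The stretches before the start sites of 4 genes are shown as background, from RefSeq on GRCm38.p6, and no level given below was tested against them. Each is the 250 bases before a start site, in the direction of transcription. Windows of 300 bases, 250 before and 50 after a start, were on hand for 8 of the 9 genes, 12 windows in all. They were searched on both strands for 4 strings: a pair of p53 core motifs (CATGNNNNNNCATG), a GC box (GGGCGG), an inverted CCAAT box (ATTGG) and a TATA box (TATAAA). Capitals mark a match, and in the first stretch the whole p53 site of 20 bases.
Cdkn1a, upstream start, chr17:29090729-29090978, + strand: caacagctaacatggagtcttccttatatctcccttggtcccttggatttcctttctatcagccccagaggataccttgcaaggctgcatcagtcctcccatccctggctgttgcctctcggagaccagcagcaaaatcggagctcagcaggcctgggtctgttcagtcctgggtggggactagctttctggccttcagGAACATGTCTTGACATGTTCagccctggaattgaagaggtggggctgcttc
Ccng1, chr11:40755287-40755536, − strand: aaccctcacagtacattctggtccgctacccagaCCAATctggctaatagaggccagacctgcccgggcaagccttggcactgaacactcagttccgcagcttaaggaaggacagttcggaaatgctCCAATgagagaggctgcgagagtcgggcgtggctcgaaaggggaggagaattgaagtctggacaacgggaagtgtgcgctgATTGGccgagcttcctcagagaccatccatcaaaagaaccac
Cdkn2a, start of the p16 form, chr4:89282193-89282442, − strand: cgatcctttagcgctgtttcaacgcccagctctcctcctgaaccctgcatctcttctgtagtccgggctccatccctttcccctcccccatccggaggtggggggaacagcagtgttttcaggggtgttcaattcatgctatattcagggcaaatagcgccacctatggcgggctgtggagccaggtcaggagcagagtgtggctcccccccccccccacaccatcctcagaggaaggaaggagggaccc
Cdkn2a, start of the p19 form, chr4:89294620-89294869, − strand: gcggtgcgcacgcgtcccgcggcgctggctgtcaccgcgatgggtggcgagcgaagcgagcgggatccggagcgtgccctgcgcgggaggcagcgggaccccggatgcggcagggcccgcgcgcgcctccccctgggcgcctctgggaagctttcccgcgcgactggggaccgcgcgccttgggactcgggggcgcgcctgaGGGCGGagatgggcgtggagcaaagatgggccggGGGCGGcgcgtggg
Cdkn2b, chr4:89311033-89311282, − strand: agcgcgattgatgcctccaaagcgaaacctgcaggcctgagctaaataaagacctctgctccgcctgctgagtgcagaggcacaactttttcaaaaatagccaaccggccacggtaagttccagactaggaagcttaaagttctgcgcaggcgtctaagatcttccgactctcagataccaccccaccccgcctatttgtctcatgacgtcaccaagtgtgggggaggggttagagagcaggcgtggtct

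The p53 core pair was found in 1 of the 12 windows, at the upstream start of Cdkn1a, and in 0.712% of the 32851 windows of all genes. Its 20-base site, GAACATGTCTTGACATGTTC, lies at chr17:29090928-29090947, and its last base is 32 bases before the upstream start and 2822 bases before the start of the row that was counted for Cdkn1a. The inverted CCAAT box occurred 4 times in the window of Ccng1, of which 3 copies lie in the stretch shown, and 37.4% of all windows hold at least 1. The GC box was present in 35.7% of all windows and the TATA box in 13.6%. These matches are letters in a reference sequence and were not measured here.

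Both organs bore the markers of their label. In the livers Alb, the gene of serum albumin, lay between 41459 and 52061 FPKM, and the summed level of 9 kidney tubule markers reached at most 1.39. In the kidneys Alb lay between 2.83 and 5.71 FPKM. The fragments on genes ran from 22501280 to 24285055 in the LD livers, 21092501 to 21721621 in the ADV livers, 15688495 to 17851563 in the LD kidneys and 16142472 to 18043306 in the ADV kidneys. Some mice stood apart from the rest. In A94 the summed level of 10 lymphocyte markers was 79.0 FPKM in the liver, against 2.37 to 5.32 in the other livers, and 86.9 in the kidney, against 3.86 to 12.6. In the kidney of A115 mitochondrial transcripts made up 30.9% of the fragments, against 8.63% to 11.98% in the other ADV kidneys and 14.6% to 16.5% in the LD kidneys, the proximal tubule transporter Slc34a1 was at 153.6 FPKM, against 801 to 1553, and the collecting duct channel Aqp2 was at 1.81, against 35.7 to 199.99. Among the LD mice the kidney of L86 differed from the other 3. There Spp1, the gene of osteopontin, was at 2676 FPKM, against 605 to 759, Sox9, a transcription factor gene, was at 3.01, against 0.149 to 0.412, and the summed level of 11 macrophage markers was 166, against 51.1 to 68.5. The kidneys of A75 and A115 also had high levels of the first pair, with Spp1 at 6636 and 8133 FPKM and Sox9 at 1.88 and 1.56. In A75 the smooth muscle actin gene Acta2 was at 44.0 FPKM in the kidney, against 7.77 to 14.99 in LD. The bile duct keratin gene Krt19 was at 14.2 FPKM in the liver of A75 and 6.31 in that of A115, against 0.638 to 1.29 in the other livers. Log2 differences of the 9 genes between ADV and LD that moved by over 1.5 times when 1 mouse was left out are also given without that mouse, or as the lowest and the highest such value.

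**Figure D1:**
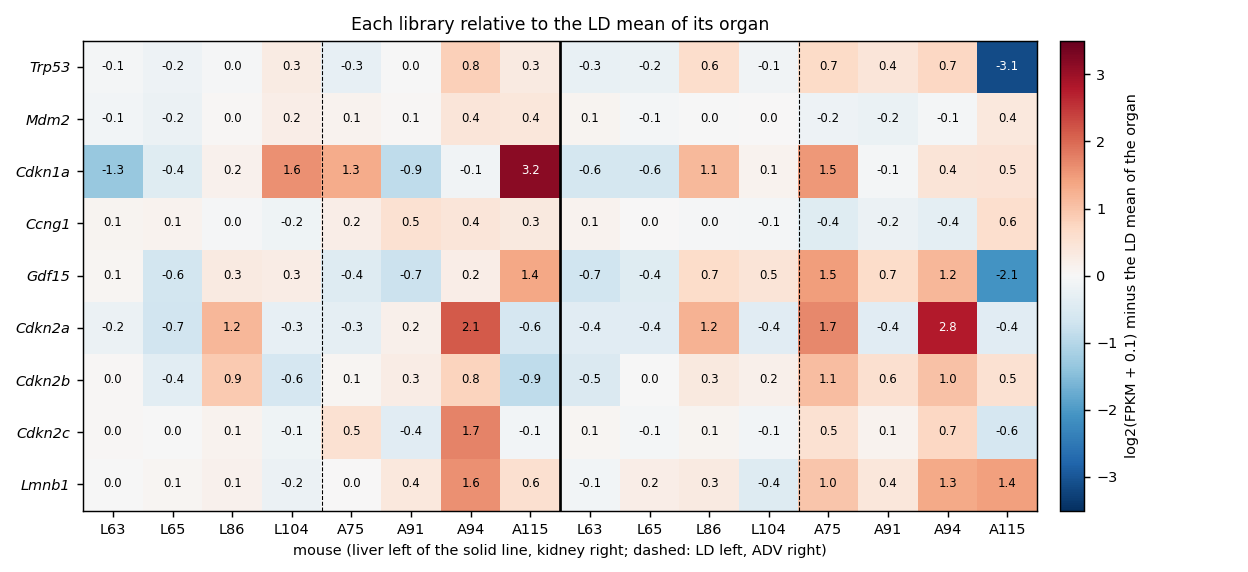
Colour and number give log2(FPKM + 0.1) of each gene in each library minus the mean of the 4 LD mice of the same organ, for 8 livers at the left and 8 kidneys at the right. The kidney of A115 is far below the LD mean for Trp53 and Gdf15, its liver is far above it for Cdkn1a, and A94 is above it for Cdkn2a, Cdkn2c and Lmnb1 in both organs.

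In the liver 0 of the 9 genes passed the test between ADV and LD. Of the 8 genes above the minimum level, 0 had an adjusted p under 0.05 by limma, where 0.00779% of all 12835 genes tested were called, and 1, Ccng1, had an unadjusted p under 0.05, where 11.8% of all genes did. The 4 ADV livers lay above the 4 LD livers without overlap for 1 gene, again Ccng1, against 6.94% of all genes, and below them for 0 genes, against 1.89%. The count of 1 in 8 was thus near the shares of all genes. In bulk tissue fewer cells of a type and less RNA per cell cannot be told apart, and this holds for every value given here.

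**Figure D2:**
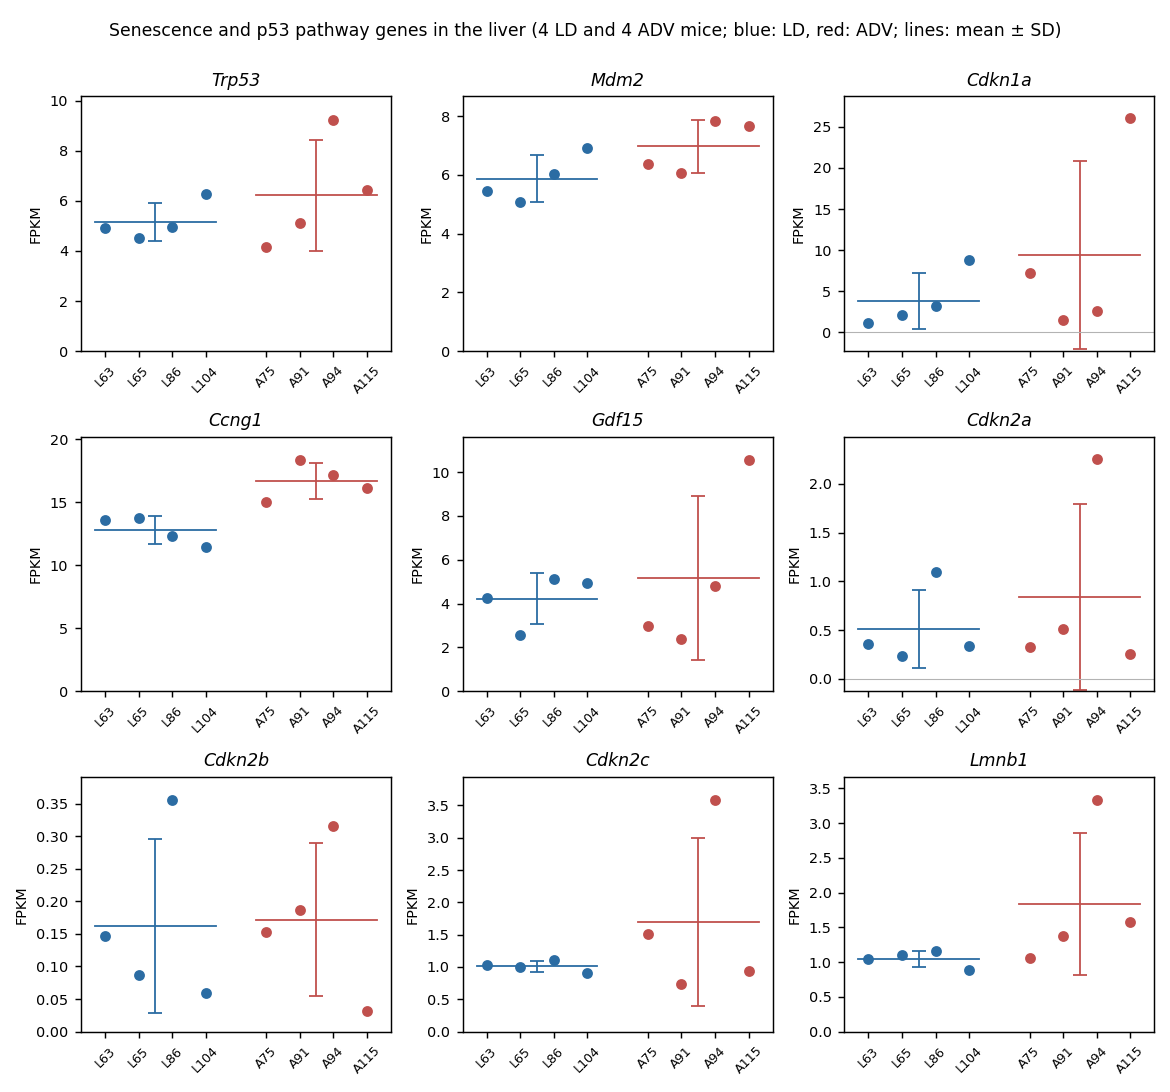
Each point is the FPKM of 1 mouse in the liver, LD in blue and ADV in red, with the mean as a line and the SD as a whisker, 1 panel per gene with its own axis. For Ccng1 the ADV mice, at 15.05 to 18.4 FPKM, all lie above the LD mice, at 11.4 to 13.8 FPKM, and in the other panels the groups overlap.

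Among the p53 genes of the liver, the level of Trp53 was 4.91, 4.5, 4.96 and 6.26 FPKM in the LD mice L63, L65, L86 and L104, and 4.15, 5.11, 9.25 and 6.43 in the ADV mice A75, A91, A94 and A115. The groups overlapped, and A94 was the highest of the 8. On the log2(FPKM + 0.1) scale the difference, ADV minus LD, was 0.22 with a standard error of 0.23 (adjusted p = 0.677, limma). It was 0.01 without A94 and 0.39 without A75. Mdm2, the brake on p53, was at 5.45, 5.08, 6.04 and 6.92 FPKM in the LD livers and at 6.35, 6.06, 7.85 and 7.65 in the ADV livers. The log2 difference of Mdm2 was 0.25 ± 0.14 (SE), with an adjusted p of 0.477 by limma.

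Cdkn1a encodes p21, the cyclin-dependent kinase inhibitor that p53 is best known to induce. Its liver level was 1.07, 2.10, 3.19 and 8.83 FPKM in the LD mice and 7.17, 1.51, 2.60 and 26.1 in the ADV mice. Mice of the same condition differed more than the conditions did, and the liver of A115 held more than the other 3 ADV livers together. Its log2 difference of 0.86 had an interval from −1.09 to 2.81 (adjusted p = 0.662, limma). With 1 mouse left out it ran from 0.10 without A115 to 1.44 without A91. A75 and A115, the highest ADV livers for Cdkn1a, were also the livers with high Krt19. The summed level of 6 bile duct markers was 20.0 to 27.8 FPKM in LD. It was 53.6, 26.7, 247 and 30.4 in A75, A91, A94 and A115, with at most 1 of the 6 listed at 0. Spp1 made up most of this sum, at 16.9 to 24.8 FPKM in LD and 34.8, 24.7, 242 and 20.4 in the ADV livers. The keratin gene Krt7 was at 0.47 to 0.63 FPKM in LD and 1.69, 0.398, 0.711 and 2.12 in ADV. The mean log2(FPKM + 0.1) of the 6 was −0.14 to 0.05 in LD and 1.34, −0.25, 0.97 and 0.74 in ADV. The part of bile duct cells in the level of Cdkn1a was not tested.

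Ccng1, which encodes cyclin G1, an established p53 target, was at 13.6, 13.8, 12.3 and 11.4 FPKM in the LD livers and at 15.05, 18.4, 17.2 and 16.1 in the ADV livers. The 4 ADV livers were all higher. The means were 12.8 ± 1.1 (SD, n = 4) and 16.7 ± 1.43 FPKM, and the log2 difference was 0.38 with an interval from 0.15 to 0.61. Its unadjusted p of 0.00469 by limma put Ccng1 at rank 197 of 12835 genes, and the adjusted p was 0.296. Leaving out each mouse in turn gave log2 differences between 0.33 and 0.43. With median-ratio scaling the difference of Ccng1 was 0.28 (unadjusted p = 0.0443, rank 1566, limma), and with both organs in 1 fit its unadjusted p was 0.0534 by limma, no longer under 0.05. Without A115 and with median-ratio scaling the unadjusted p was 0.0636 by limma.

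Gdf15, a secreted stress hormone of the TGF-beta family that p53 and the integrated stress response can induce, was at 4.25, 2.57, 5.12 and 4.94 FPKM in the LD livers and at 2.96, 2.40, 4.80 and 10.6 in the ADV livers. A115 was the highest, as it was for Cdkn1a, and the other 3 ADV livers lay within or below the LD range. ADV minus LD was 0.10 ± 0.42 (SE; adjusted p = 0.933, limma), and with 1 mouse left out it ran from −0.32 without A115 to 0.38 without A91.

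The 2 rows of Cdkn2a stand for the transcripts of p16 and of p19Arf, a protein that protects p53 from Mdm2, which start at separate first exons. In the GENCODE annotation 575 of the 852 bases of the p16 transcript, and of the 895 bases of the p19 transcript, are shared, so that a fragment from the common exons counts for both rows and the 2 rows are not separate measurements. The p16 row, at chr4:89274473-89282192, was at 0.362, 0.239, 1.1 and 0.337 FPKM in the LD livers and at 0.328, 0.511, 2.26 and 0.254 in the ADV livers. L86 was the highest LD liver and A94 the highest ADV liver, and the other 6 livers lay between 0.239 and 0.511. The values rest on 5 to 43.5 fragments per library, and the level that 3 fragments give lies between 0.135 and 0.156 FPKM. ADV minus LD was 0.35 ± 0.61 (SE; adjusted p = 0.814, limma). The difference was 0.13 without L65 and 0.74 without L86, and without A94 the gene fell under the minimum level for a test. The p19 row, which reaches to 89294619, had the same order at the top, with 0.781 FPKM in L86 and 1.69 in A94, and 0.175 to 0.420 in the other livers.

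Cdkn2b, the neighbour of Cdkn2a that encodes p15, was below the minimum level in the liver and was not tested there. It was at 0.147, 0.0875, 0.356 and 0.0587 FPKM in the LD livers and at 0.154, 0.187, 0.316 and 0.0310 in the ADV livers, which is 1 to 13 fragments per library. The highest liver of each group was again L86 and A94. Cdkn2c, which encodes p18, was at 1.04, 0.992, 1.1 and 0.906 FPKM in the LD livers and at 1.51, 0.744, 3.58 and 0.937 in the ADV livers. The log2 difference of Cdkn2c was 0.45 ± 0.40 (SE; adjusted p = 0.623, limma), and it was 0.02 without A94 and 0.73 without A91.

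Lmnb1, which encodes lamin B1, was at 1.04, 1.1, 1.16 and 0.886 FPKM in the LD livers and at 1.06, 1.37, 3.33 and 1.58 in the ADV livers. The LD livers lay close together, 3 of the 4 ADV livers were above all of them, and A75 was within them. Its log2 difference was 0.64 ± 0.30 (SE; unadjusted p = 0.0632, adjusted p = 0.442, limma), and it was 0.32 without A94. In A94 the summed level of 10 proliferation markers was 52.3 FPKM, against 22.5 to 28.1 in the other livers. Most of this sum was Pcna, at 30.3 FPKM in A94 and 19.0 to 25.3 in the others. The mean log2(FPKM + 0.1) of the 10 markers was −1.25 to −0.95 in the LD livers. It was −0.86, −1.47, 1.55 and −0.35 in A75, A91, A94 and A115, so that A75 and A115 also lay above LD. The part of cycling cells in the values of Trp53, Cdkn2a, Cdkn2c and Lmnb1 was not tested.

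In the kidney too, 0 of the 9 genes passed the test with all mice, but leaving out 1 mouse, A115, changed this. With all 8 mice, 0 of the 8 genes above the minimum had an adjusted p under 0.05 by limma, as had 0% of all 14452 genes. An unadjusted p under 0.05 was found for 2 genes, Cdkn2b and Lmnb1, against 3.1% of all genes. The same 2 genes were higher in every ADV kidney than in every LD kidney, against 0.962% of all genes, and 0 genes were lower without overlap, against 1.83%. Without A115, 2 of the 8 genes, Cdkn2b and Lmnb1, had an adjusted p under 0.05 and a higher ADV level, against 16.1% of 14475 genes, and 1, Ccng1, a lower ADV level, against 2.68%. Under the 16 alternatives that keep A115 the adjusted p was at least 0.543 for Lmnb1, 0.733 for Cdkn2b and 0.997 for Ccng1.

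**Figure D3:**
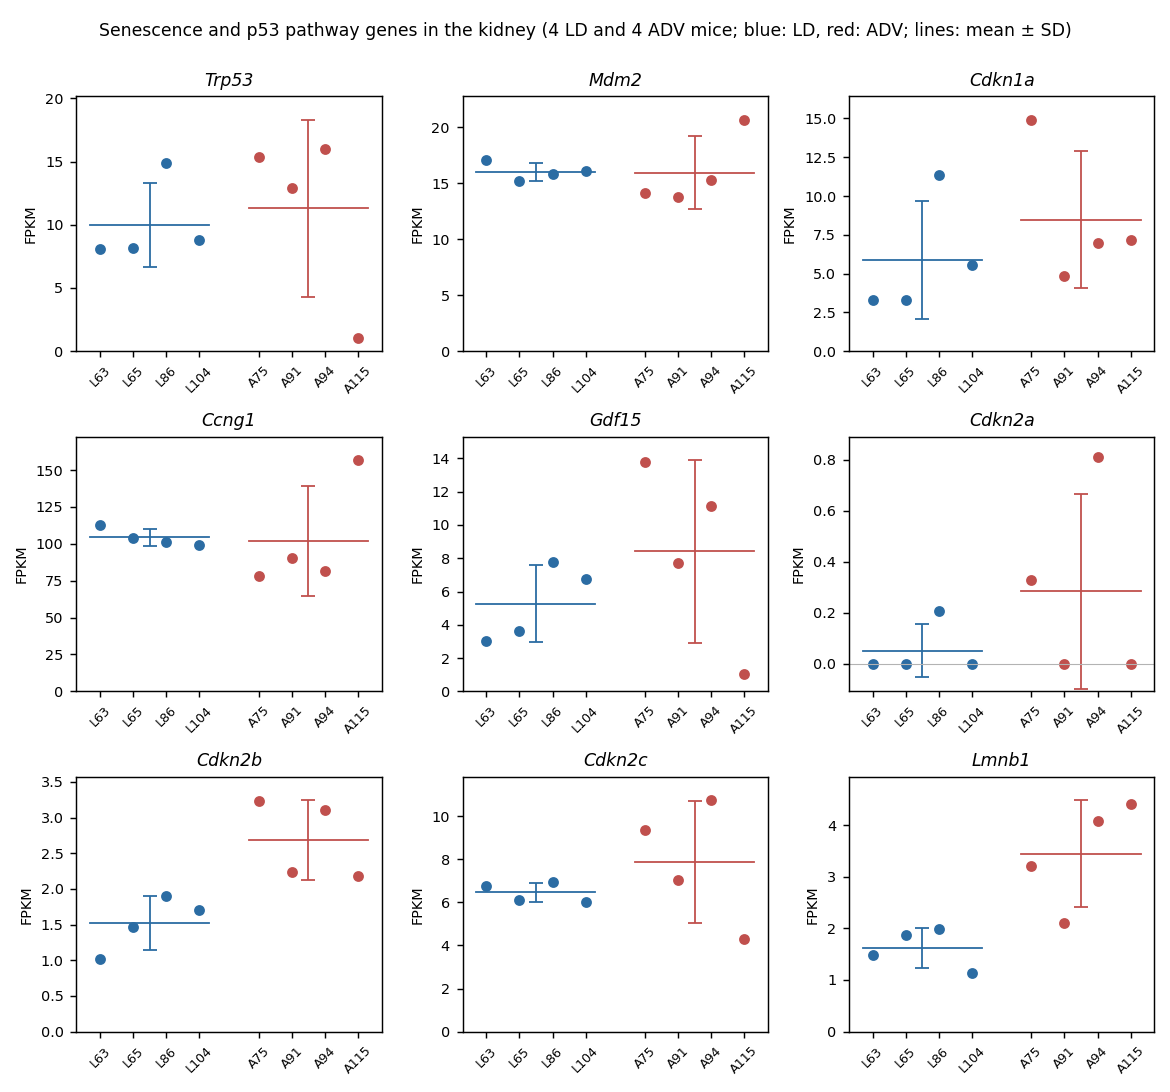
Each point is the FPKM of 1 mouse in the kidney, LD in blue and ADV in red, with the mean as a line and the SD as a whisker, 1 panel per gene with its own axis. All ADV mice lie above all LD mice for Cdkn2b and Lmnb1, and A115 lies away from the other 3 ADV mice for Trp53, Ccng1, Gdf15 and Mdm2.

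Trp53 was at 8.06, 8.16, 14.9 and 8.78 FPKM in the LD kidneys and at 15.4, 12.9, 16.01 and 1.01 in the ADV kidneys. A115 had the lowest level of all 8 kidneys, from 34 fragments, and L86 was the highest of the LD kidneys. ADV minus LD was −0.33 with an interval from −2.25 to 1.59 (adjusted p = 1.0, limma). Without A115 it was 0.60 ± 0.22 (SE; adjusted p = 0.0819, limma), so that 1 kidney set the sign, and it was −0.12 without L86 and −0.68 without A94. Mdm2 was at 17.1, 15.2, 15.8 and 16.1 FPKM in the LD kidneys and at 14.1, 13.7, 15.3 and 20.7 in the ADV kidneys, where A115 was the highest. The log2 difference of Mdm2 was −0.02 ± 0.16 (SE) with all mice and −0.16 ± 0.09 without A115, and 0.04 without A91.

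Cdkn1a was at 3.31, 3.29, 11.3 and 5.54 FPKM in the LD kidneys and at 14.9, 4.87, 6.98 and 7.16 in the ADV kidneys. L86 and A75 were the highest of their groups, and both had high Spp1 and Sox9. The kidney of A115, with the highest Spp1, was at 7.16 FPKM for Cdkn1a, less than L86. Its log2 difference was 0.59 ± 0.48 (SE; adjusted p = 1.0, limma), and with 1 mouse left out it ran from 0.28 without A75 to 0.97 without L86 (adjusted p = 1.0, limma). The kidney of A115 was in the middle of its group for Cdkn1a, while its liver was the highest of all.

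Ccng1 was at 113, 104.3, 101 and 99.2 FPKM in the LD kidneys and at 78.0, 90.7, 81.5 and 157 in the ADV kidneys. A75, A91 and A94 were below every LD kidney and A115 was above every one of them. On average the log2 difference was −0.10 ± 0.23 (SE) with all mice, and −0.32 ± 0.09 without A115, where the adjusted p was 0.0401 by limma. Leaving out A75 gave 0.01 and leaving out A94 gave −0.01. In the liver the same gene was higher in the ADV mice. The difference of the ADV effect between the organs was 0.47 ± 0.26 on the log2 scale, higher in the liver (unadjusted p = 0.0831, adjusted p = 1.0, limma), and 0.72 ± 0.14 without A115 (adjusted p = 0.0249). Of the 8 genes tested for such a difference, 0 had an adjusted p under 0.05 with all mice, as had 0% of 14379 genes, and 0 an unadjusted p under 0.05, against 3.73%. Without A115, 1 gene, Ccng1, was called, against 0.57% of genes called with a higher effect in the liver.

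Gdf15 was at 3.0, 3.62, 7.75 and 6.75 FPKM in the LD kidneys and at 13.8, 7.73, 11.1 and 1.06 in the ADV kidneys. The 3 other ADV kidneys were near or above the top of the LD range, and A115, with 22 fragments, was below it. As for Cdkn1a, L86 and A75 were the highest of their groups. The log2 difference was 0.30 ± 0.77 (SE; adjusted p = 1.0, limma), and 1.1 ± 0.35 without A115 (adjusted p = 0.0589). It was 0.01 without A94 and −0.09 without A75.

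The p16 row of Cdkn2a was listed at 0 in 5 of the 8 kidneys, L63, L65, L104, A91 and A115. It was at 0.206 FPKM in L86, 0.328 in A75 and 0.809 in A94, and 3 fragments give between 0.180 and 0.207 FPKM in these libraries. The 3 kidneys with fragments belong to 1 LD and 2 ADV mice, and L86 and A94 were also the highest livers of their groups. The gene was below the minimum level for a test. Cdkn2b was at 1.02, 1.47, 1.90 and 1.70 FPKM in the LD kidneys and at 3.23, 2.23, 3.10 and 2.18 in the ADV kidneys. Each ADV kidney was above each LD kidney, with means of 1.52 ± 0.381 (SD, n = 4) and 2.69 ± 0.558 FPKM. The log2 difference was 0.79 with an interval from 0.21 to 1.37 (unadjusted p = 0.0136, rank 80 of 14452 genes, adjusted p = 1.0, limma). Without A115 it was 0.88 ± 0.23 (SE; adjusted p = 0.0361, limma). The summed level of 8 fibroblast markers was 55.4 to 97.3 FPKM in the LD kidneys and 187, 72.5, 192 and 144 in A75, A91, A94 and A115, with 0 of the 8 listed at 0. That of the macrophage markers was 51.1 to 166 in LD and 175, 61.4, 334 and 65.9 in the ADV kidneys, with 1 to 4 of the 11 listed at 0 in a kidney and Clec4f, a Kupffer cell gene, at 0 in all 8. A75 and A94 were the highest of the 8 kidneys for both sums and for Cdkn2b, and the part of these cells in its level was not tested.

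Cdkn2c was at 6.75, 6.11, 6.96 and 6.04 FPKM in the LD kidneys and at 9.38, 7.04, 10.8 and 4.28 in the ADV kidneys. A75, A91 and A94 were above the LD kidneys and A115 was below them. The log2 difference was 0.20 ± 0.28 (SE) with all mice and 0.46 ± 0.15 without A115 (adjusted p = 0.0652, limma). Without A94 it was 0.03.

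Lmnb1 was at 1.47, 1.87, 1.98 and 1.14 FPKM in the LD kidneys and at 3.21, 2.10, 4.08 and 4.42 in the ADV kidneys. Each ADV kidney was above each LD kidney. The log2 difference was 1.02 with an interval from 0.36 to 1.69, about 2.03-fold (unadjusted p = 0.00749, rank 34 of 14452 genes, adjusted p = 1.0, limma), and 0.89 ± 0.27 (SE) without A115 (adjusted p = 0.0496). The summed level of the 10 proliferation markers was 30.6 to 41.8 FPKM in the LD kidneys and 60.5, 33.5, 65.3 and 84.2 in A75, A91, A94 and A115, with 0 of the 10 listed at 0 in any kidney. The order of the ADV kidneys for Lmnb1, with A115 and A94 at the top and A91 at the bottom, was the order of this sum. The part of cycling cells in the level of Lmnb1 was not tested.

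**Figure D4:**
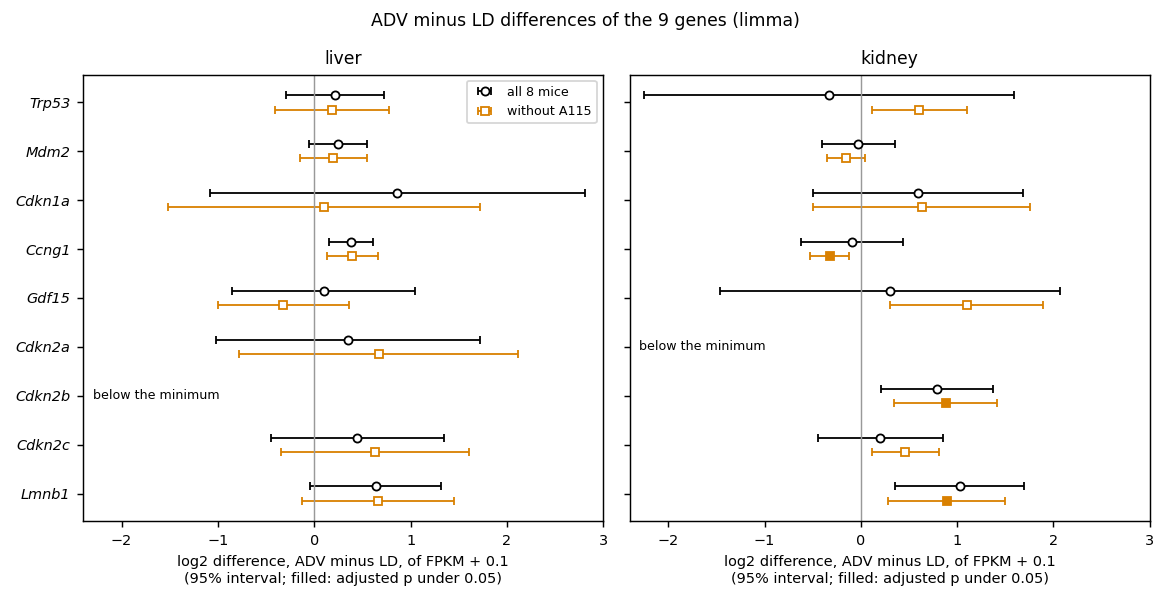
Points give the log2 difference, ADV minus LD, with its 95% interval for the liver at the left and the kidney at the right, with all 8 mice as circles and without A115 as squares. Filled points have an adjusted p under 0.05, which are Ccng1, Cdkn2b and Lmnb1 in the kidney without A115, and the interval of Trp53 in the kidney narrows when A115 is left out.

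The kidney values without A115 depended on the scaling. Without A115 the 3 ADV kidneys had a smaller share of mitochondrial fragments than any LD kidney, 8.63% to 11.98% against 14.6% to 16.5%. Without A115 the median gene of the kidney was 0.20 higher in ADV on the log2 scale, and 2336 genes were called higher and 388 lower. When the libraries were also scaled by the median ratio, the median was 0.01 and the calls were 1168 and 1148. Ccng1, at −0.52 (adjusted p = 0.0312), and Mdm2, at −0.35 (adjusted p = 0.0417), were then lower in ADV by limma, against 7.94% of all genes called lower, while Cdkn2b, at 0.69 ± 0.21 (SE; adjusted p = 0.0522), and Lmnb1, at 0.70 ± 0.23 (adjusted p = 0.0704), did not pass the threshold. When mitochondrial genes were instead left out of the library totals, which was chosen after the data had been seen, the median was 0.11, with 11.2% of genes called higher and 4.8% lower. Ccng1, at −0.41 (adjusted p = 0.0289), and Cdkn2b, at 0.80 (adjusted p = 0.0477), were then called by limma, and Lmnb1, at 0.81 (adjusted p = 0.0654), was not.

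The levels of the 9 genes were then set side by side within and between the organs. In both organs Ccng1 had the highest mean level per length, 103 ± 24.7 FPKM in the kidney (SD, n = 8) and 14.7 ± 2.38 in the liver, and in the kidney it exceeded each other gene in every mouse. In the kidney Mdm2 followed with 15.98 ± 2.18 FPKM, then Trp53 with 10.6 ± 5.12, and Cdkn1a, Cdkn2c and Gdf15 lay together between 6.85 and 7.18. Lmnb1, at 2.53 ± 1.22, and Cdkn2b, at 2.11 ± 0.763, overlapped, and Cdkn2a was the lowest at 0.168 ± 0.288, a mean that was 0.0763 without A94. In the liver Mdm2, Trp53 and Gdf15 lay between 4.70 and 6.42 FPKM and overlapped from mouse to mouse. Cdkn1a overlapped with them, at 6.57 ± 8.37 with all 8 mice, the highest of these 4 means, and at 3.78 ± 3.0 without A115 (SD, n = 7), so that 1 mouse set its place in the order. Lmnb1 and Cdkn2c were at 1.44 and 1.35 in the liver, and Cdkn2a, at 0.674 ± 0.698, and 0.447 without A94, stood above Cdkn2b, at 0.167 ± 0.117, in each of the 8 mice. The order of these neighbours was opposite in the kidney, where Cdkn2b was above Cdkn2a in each of the 8 mice.

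**Figure D5:**
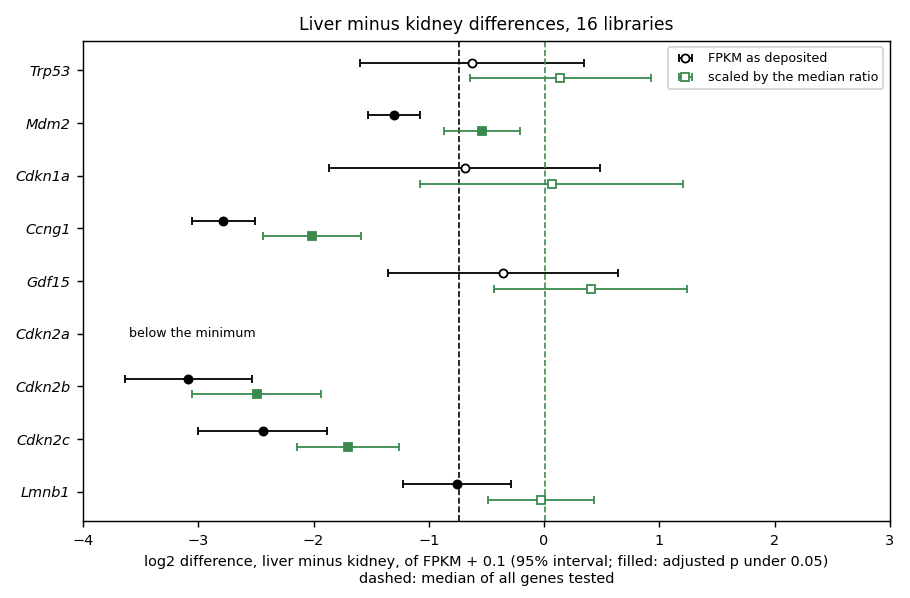
Points give the log2 difference, liver minus kidney, with its 95% interval over 16 libraries, on FPKM as deposited as circles and after scaling by the median ratio as squares. Filled points have an adjusted p under 0.05, and dashed lines mark the median of all genes tested, −0.74 as deposited and 0.01 after scaling. Cdkn2b, Ccng1, Cdkn2c and Mdm2 lie below the median of all genes on both scales.

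Of the 8 genes tested between the organs, 5 had an adjusted p under 0.05 by limma and were lower in the liver, and 0 were higher. Over all 14379 genes 61.5% were called lower in the liver and 13.1% higher, and the median log2 difference was −0.74, so that differences are to be read against that median. Ccng1 was 6.88-fold lower in the liver, Cdkn2c 5.44-fold, Mdm2 2.47-fold and Cdkn2b 8.50-fold. The log2 differences were −2.78 ± 0.13, −2.44 ± 0.26, −1.31 ± 0.11 and −3.09 ± 0.26 (SE), with adjusted p of at most 6.16e-07 by limma. The fold of Cdkn2b depends on the pseudocount, because its liver level was close to it. The fold of this gene was 3.81 with a pseudocount of 0.5, 2.60 with 1 and 13.4 by limma-voom on the fragments, and that of Cdkn2c was 3.55 with a pseudocount of 1. Lmnb1, at −0.76 ± 0.22 (adjusted p = 0.00584), was near the median of all genes. After scaling by the median ratio, which moved the median to 0.01 and the share of genes called lower to 33%, these 4 stayed lower at −2.01 for Ccng1, −1.70 for Cdkn2c, −0.54 for Mdm2 and −2.50 for Cdkn2b, and Lmnb1 was at −0.03 (adjusted p = 0.920). Cdkn1a, Gdf15 and Trp53 did not pass the test, at −0.69, −0.36 and −0.63, and after that scaling they were at 0.07, 0.40 and 0.14. Cdkn2a was below the minimum, and without a minimum its log2 difference was 1.74, higher in the liver (adjusted p = 0.0118, limma), a value that depends on the pseudocount because 5 kidneys were listed at 0. Without A115 all 8 genes were called lower in the liver on the deposited scale, as were 71.7% of all genes.

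The wider lists of the pathway gave few differences between ADV and LD, and 0 genes of any of the 7 lists passed the test in either organ with all mice. An unadjusted p under 0.05 was found for 11.8% of all genes in the liver and 3.1% in the kidney, and the counts at that level are to be read against these shares. Among the lists the share ran from 0% of the INK4 regulators to 22.2% of the secretory list in the liver, and from 0% of the secretory and ATF4 lists to 12.5% of the INK4 regulators in the kidney. In the liver 31 further p53 targets were tested, of which 1 was higher and 1 lower at an unadjusted p under 0.05. Their median log2 difference was 0.14, against 0.10 for all genes. Rps27l, a ribosomal protein-like p53 target, was at 136 ± 8.69 FPKM in LD and 165 ± 18.7 in ADV (SD, n = 4). Sesn2, a sestrin that restrains mTORC1 and is also induced by ATF4, was at 2.56 ± 0.562 and 1.70 ± 0.465. Of 19 regulators of p53, 1 was higher and 0 lower, with a median of −0.0029. That gene was Chek2, a kinase that acts on p53 after DNA damage, at 0.536 ± 0.0324 and 0.860 ± 0.235 FPKM, and the smallest p among those with a lower level belonged to Cop1, a ubiquitin ligase for p53, at 10.7 ± 0.292 and 9.64 ± 0.608.

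Of 23 genes of the cyclin, CDK and retinoblastoma machinery of the liver, 1 was higher and 0 lower, with a median of 0.06. It was E2f2, an E2F transcription factor, at 0.130 ± 0.0484 FPKM in LD and 0.526 ± 0.469 in ADV, where the mean was 0.298 without A94. Ccne2, the gene of cyclin E2, was at 1.28 ± 0.173 and 0.921 ± 0.322. Among 16 regulators of the INK4 locus 0 were higher and 0 lower, with Rnf2, a Polycomb ubiquitin ligase, at 6.23 ± 0.215 and 7.5 ± 1.19, and Kdm6b, a demethylase that removes the Polycomb mark, at 2.03 ± 0.359 and 1.64 ± 0.431 FPKM. Of 16 genes of the lamina and chromatin 1 was higher and 1 lower: H2afz, the histone variant H2A.Z, at 46.1 ± 4.44 and 61.5 ± 7.92, and Sun2, of the inner nuclear membrane, at 13.2 ± 1.5 and 10.2 ± 1.44.

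Of 36 genes of the senescence-associated secretory phenotype tested in the liver, 5 were higher and 3 lower at an unadjusted p under 0.05. Their median log2 difference was 0.42, and −0.04 over 30 tested genes when A94 was left out. In the same livers the summed level of the 8 fibroblast markers was 115.5 to 131 FPKM in LD and 217, 159, 354 and 197 in A75, A91, A94 and A115, without overlap, and 6 of the 8 had an unadjusted p under 0.05. The median log2 difference of these markers was 1.51, and 0.87 without A94. For the 11 macrophage markers the sum was 125 to 205 in LD and 241, 188, 534 and 200 in ADV, 6 of the 11 had an unadjusted p under 0.05, and the median was 0.79, and 0.50 without A94. In these livers 0 of both marker lists were listed at 0 and 0 of their genes are in the secretory list, and the part of these cells in its levels was not tested. Hgf, hepatocyte growth factor, was at 3.75 ± 0.476 FPKM in LD and 5.24 ± 0.767 in ADV. Vegfa, the vascular growth factor, was at 21.7 ± 1.35 and 16.4 ± 1.86, lower in every ADV liver than in every LD liver. Of 14 genes of the ATF4 stress response 1 was higher and 2 lower, a share of 21.4%, among them Mthfd2, a mitochondrial folate enzyme, at 0.252 ± 0.114 and 0.779 ± 0.511, and Sesn2.

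In the kidney 4 of the 10 proliferation markers and 3 of the 8 fibroblast markers were higher in ADV at an unadjusted p under 0.05, shares of 40% and 37.5%, and the part of such cells in the levels of the lists was not tested. There 33 p53 targets were tested, of which 1 was higher at an unadjusted p under 0.05 and 0 lower, with a median of 0.16 against −0.02 for all genes. Psrc1, a spindle protein and p53 target, was at 0.228 ± 0.0891 FPKM in LD and 0.836 ± 0.434 in ADV. Rrm2b, a subunit of ribonucleotide reductase, was at 11.7 ± 1.43 and 9.36 ± 2.57. Chek1, a checkpoint kinase and the 1 higher of 19 regulators of p53, was at 0.216 ± 0.0146 and 0.671 ± 0.543, with an ADV mean of 0.407 without A115, and Prkdc, the DNA-dependent protein kinase, at 1.42 ± 0.251 and 1.14 ± 0.117. In the cyclin and retinoblastoma list 1 of 24 genes was higher, E2f8, a repressor E2F, at 0.0805 ± 0.0695, or 0.0493 without L86, and 0.423 ± 0.236, while E2f5 was at 19.6 ± 2.23 and 16.3 ± 1.54.

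Among 16 regulators of the INK4 locus of the kidney 1 was higher and 1 lower. Ezh2, the methyltransferase of Polycomb that is known to silence Cdkn2a, was at 1.12 ± 0.323 FPKM in LD and 2.46 ± 1.12 in ADV. Id2, an inhibitor of basic helix-loop-helix factors, was at 293 ± 8.58 and 202 ± 14.5, with all 4 ADV kidneys below all 4 LD kidneys, and its unadjusted p was 0.00247 by limma. H2afz was the 1 higher gene of 16 in the lamina and chromatin list, at 41.4 ± 2.16 and 74.8 ± 31.1, and Lbr, the lamin B receptor, was at 9.89 ± 0.422 and 9.04 ± 3.38. In the secretory list 0 of 38 and in the ATF4 list 0 of 13 genes had an unadjusted p under 0.05. There Il1r1, the receptor of interleukin 1, was at 1.75 ± 0.395 and 2.75 ± 0.982, Mmp13, a collagenase, at 1.26 ± 0.283 and 0.954 ± 0.343, Mthfd2 at 1.91 ± 1.15 and 2.84 ± 0.983, and Ddit3, the stress factor CHOP, at 14.2 ± 3.10 and 10.3 ± 4.16. Without A115, 8 of the 33 p53 targets were called higher and 1 lower by limma, as were 4 and 0 of 23 in the cyclin list, 5 and 1 of 16 INK4 regulators, 5 and 0 of 16 in the lamina list, 1 and 0 of 38 in the secretory list, 1 and 0 of 13 in the ATF4 list and 0 and 0 of 19 regulators of p53, where 16.1% of all genes were called higher and 2.68% lower. When the libraries were also scaled by the median ratio, the counts were 3 and 2 for the p53 targets, 4 and 1 for the cyclin list, 2 and 3 for the INK4 regulators, 5 and 0 for the lamina list, 0 and 0 for the secretory list, 1 and 0 for the ATF4 list and 0 and 3 for the regulators of p53, against 8.08% of all genes called higher and 7.94% lower.

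Across the 16 libraries, after each gene's mean in each organ was subtracted, some of the 9 genes varied together. The points are 2 organs of the same 8 mice, so that they share animals, and the values describe these libraries. Trp53 and Gdf15 had a Pearson correlation of 0.84 on the log2(FPKM + 0.1) scale, and 0.76 over 14 libraries without A115. Ccng1 and Gdf15 ran opposite to each other, at −0.71 and −0.70. Ccng1 and Mdm2, both p53 targets, were at 0.61 with all mice and 0.36 without A115, and Trp53 and Lmnb1 went from −0.08 to 0.80. Cdkn1a and Trp53 were at 0.13, and 0.40 without A115.

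Among the 12319 genes above the minimum in both organs, those most like Trp53 were Ppp2r1a, Pi4k2a and 2310022A10Rik, each at 0.99, and 0.91 to 0.94 without A115. For Ccng1 they were Exoc6, Mid2 and Nae1, at 0.93 to 0.96. For Cdkn1a they included Dtx4, at 0.94, and Chka, at 0.91, and for Mdm2 they were Ttc1, Tra2b and Lig4, at 0.89 to 0.92. For Gdf15 they were Zfp691, Tti2 and Tcf7l1, at 0.95 to 0.97. Cdkn2c ran closest to Klhl6, Nfatc2 and Spon1, at 0.95, and Lmnb1 to Mylip, Clec12a and F2r, at 0.93. None of these genes is among the 9.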

How the data were processed

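RNA was measured in 16 libraries. Per the labels and the study's methods, the authors sequenced stranded poly(A) libraries as paired reads with 2 providers, and which library came from which was not given in the sources used here. They mapped the reads with STAR 2.5.4b to mm10 and quantified exons of the UCSC genes with HOMER, and the deposited FPKM values are scaled to exon length and library total. Multiplied back, 100.0% of the values above 0 came out as whole steps of 0.5 fragment within 0.01, which gave the fragments.

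Groups followed the labels. Genes with a mean FPKM times exon length in kb above 0.5, the study's rule for an expressed gene, were tested on log2(FPKM + 0.1) with limma 3.58.1 in R 4.3.3 (lmFit, and eBayes with trend), with Benjamini-Hochberg adjustment over all genes tested and a threshold of 0.05. Each organ was fitted apart, and the organ difference and the difference of the ADV effect between organs were fitted over 16 libraries. The p-values measure the spread between 4 mice a group, and levels of 3 fragments cover counting error only. DESeq2, the test of the study on counts, was not run. The procedure was tested on simulated data.

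Same-numbered libraries were taken, by their labels, as organs of 1 mouse. The distance of each gene from its group mean in one organ was correlated with that in the other. This gave Pearson values between −0.0242 and 0.553 over 12319 genes. Libraries of different mice were not compared in this way, so that these values cannot decide the pairing. The 9 genes and the lists were chosen with earlier results of these data known. Beside the 9 genes, the text names from each list in each organ the higher and the lower gene of smallest p, and, for those of the 9 above the minimum in both organs, the 3 genes of most similar pattern, of which 1 is not reported here. Alternatives were pseudocounts of 0.5 and 1, no minimum, a mean FPKM above 1, median-ratio and quantile scaling, limma-voom on the fragments, mitochondrial genes out of the total, both organs in 1 fit, the mouse as block, and each mouse left out, A115 also together with median-ratio scaling or with mitochondrial genes out of the total. Sequence stretches come from the RefSeq promoter table of GRCm38.p6, and 0 sample columns were left unused. Figures were drawn with Python 3.11.15 and matplotlib 3.10.9.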

Additional observations from a re-analysis of the deposited data

Results flagged for a closer look

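In groups of 4 mice the gap of the highest or lowest mouse to its neighbour was compared with the range of the group (Dixon's ratio at its 95% critical value). Of 40 groups, for the 10 rows of the 9 genes in 2 organs and 2 conditions, 8 held such a mouse, and chance gives about 1 in 20 groups. The rows of Cdkn2a share fragments, and so the 8 are not independent. L86 accounted for 5, A94 for 2 and A115 for 1. For 2 of the 8, the rows of Cdkn2a in the LD kidneys, the other 3 mice were listed at 0, so that the 3 to 4 fragments found in L86 had to pass the ratio, and these 2 carry no weight.

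In the liver the p16 row of Cdkn2a was at 1.1 FPKM in L86 and at 2.26 in A94, and the p19 row at 0.781 in L86 and at 1.69 in A94. In the kidney L86 was at 0.206 FPKM for the p16 row and at 0.252 for the p19 row, where the other 3 LD kidneys were listed at 0. Trp53 in the kidney was at 14.9 FPKM in L86, against 8.06 to 8.78 in the other LD kidneys. Ccng1 in the kidney was at 157 FPKM in A115, against 78.0 to 90.7 in the other ADV kidneys.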

How the results depend on the processing

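In the liver 0 of the 9 genes passed the threshold under any alternative. In the kidney the count was 0 with all mice, 0 to 3 when each mouse was left out, and 2 without A115 with median-ratio scaling or with mitochondrial genes out of the total, the latter an alternative chosen after seeing the data. Between the organs it was 5, and 5 to 8 when each mouse was left out, with 8 without A115, also with mitochondrial genes out of the total. For the difference of the ADV effect it was 0, then 0 to 1, and 1 without A115 with either of these. The mouse as a block changed no call of the 9 genes, with 5 called between the organs.

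The sign turned for the following log2 differences, 0 of them past the threshold in the new direction. Gdf15 in the liver was −0.0040 with median-ratio scaling, −0.012 with quantile normalization and −0.42 without A115 with median-ratio scaling. Trp53 in the kidney was then 0.41, and the difference of the ADV effect −0.44 for Cdkn1a and −0.34 for Trp53. Without A115 and with mitochondrial genes out of the total these 4 were −0.32, 0.51, −0.44 and −0.34. Liver minus kidney was 0.066 for Cdkn1a under both scalings, 0.40 and 0.38 for Gdf15, 0.14 and 0.020 for Trp53, and for Lmnb1 0.28 with quantile normalization and 0.12 without A115 with median-ratio scaling. When each mouse was left out, ranges were −0.32 to 0.38 for Gdf15 in the liver. In the kidney they were −0.32 to 0.012 for Ccng1, −0.094 to 1.1 for Gdf15, −0.16 to 0.040 for Mdm2 and −0.68 to 0.60 for Trp53. For the difference of the ADV effect they were −0.53 to 0.77 for Cdkn1a, −0.0069 to 0.50 for Cdkn2c, −1.42 to 0.37 for Gdf15 and −0.42 to 1.05 for Trp53. The cause was not tested. Depth limits Cdkn2a in both organs and Cdkn2b in the liver, with at most 43.5 fragments in a library.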
